A study of Homo sapiens with 22 samples.

Results

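The genes described are those of the heat shock proteins and molecular chaperones, taken by symbol: HSP70 proteins (HSPA), small heat shock proteins (HSPB), HSP90 proteins, HSPH1, the mitochondrial chaperonin pair HSPD1 and HSPE1, J proteins (DNAJA, DNAJB and DNAJC), the subunits of the CCT chaperonin with TCP1, and the BAG co-chaperones. The choice was made by name and not by any measured value. Of the 59087 gene names in the count tables, 97 were members. Enough reads for a test were present for 76 members in each of the H2A.X and BAZ1B experiments, 75 of them in both. Another 20 were tested in neither, the highest of them at 0.515 CPM (read counts scaled to a common library size by TMM), and 4 had no read in any library. The members include 11 pseudogenes of HSP90, of which 4 and 3 were tested.

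RNA-Seq was performed in HUDEP-2 cells, an immortalized line of human erythroid progenitors, before (D0) and during (D6) maturation in differentiation medium. The H2A.X experiment held 2 H2A.X WT and 3 H2A.X KO samples, and the BAZ1B experiment 3 BAZ1B WT and 3 BAZ1B KO samples, each at D0 and D6, so that 22 libraries were analysed. H2A.X is a histone variant and BAZ1B the kinase that phosphorylates its Y142, and the KO cells were HUDEP-2 subclones made with a pair of CRISPR/Cas9 guides and cloned by limiting dilution, so that every group shares the parental line. The comparisons ask which genes differ without H2A.X or BAZ1B at each day, and which change as the cells mature.

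Chaperones bind polypeptides that are not yet folded, or no longer folded, and keep them from aggregating. HSP70 proteins work in cycles of ATP hydrolysis that J proteins start and that nucleotide exchange factors, the BAG and HSP110 proteins, end, while HSP90 acts later on a set of clients and the CCT ring folds actin, tubulin and other proteins in a closed chamber. A stress-inducible group is transcribed by HSF1 through heat shock elements, alternating units of GAA and TTC. In erythroid precursors HSP70 is known to protect the transcription factor GATA1 from caspase-3.

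RefSeq (GRCh38.p14) gave 98 promoters, each from 250 bases before to 50 bases after a transcription start, for 75 of the 97 members. A pair of heat shock units, TTCNNGAA or GAANNTTC, both of which read the same on either strand, was found in 28.6% of these promoters and in 13.5% of all 35116 promoters of the table. Matches of 3 alternating units with 2 bases between units, which contain the pairs, were found on either strand in 7 of the 98 promoters (7.14%) and in 0.490% of all promoters. The 7 belonged to HSPA8, HSP90AA1, HSP90AB1, HSPA6, HSPD1, DNAJA1 and DNAJB6. A match is a description of the letters and no test was made on it. The promoters of the 3 most abundant members and of HSPA6, which went the opposite way to them with maturation, are printed from 5′ to 3′ on the strand of the gene, minus for HSPA8 and HSP90AA1 and plus for the other two, with the 3-unit matches in capitals and any other 2-unit match left in lower case.
HSPA8 promoter, chr11:123062087-123062386: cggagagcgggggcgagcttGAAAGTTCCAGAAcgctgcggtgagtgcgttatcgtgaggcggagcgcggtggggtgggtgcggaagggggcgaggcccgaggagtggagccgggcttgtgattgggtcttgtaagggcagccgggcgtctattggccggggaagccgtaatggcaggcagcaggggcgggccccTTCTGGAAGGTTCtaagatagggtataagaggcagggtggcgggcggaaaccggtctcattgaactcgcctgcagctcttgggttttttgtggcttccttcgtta
HSP90AA1 promoter, chr14:102086995-102087294: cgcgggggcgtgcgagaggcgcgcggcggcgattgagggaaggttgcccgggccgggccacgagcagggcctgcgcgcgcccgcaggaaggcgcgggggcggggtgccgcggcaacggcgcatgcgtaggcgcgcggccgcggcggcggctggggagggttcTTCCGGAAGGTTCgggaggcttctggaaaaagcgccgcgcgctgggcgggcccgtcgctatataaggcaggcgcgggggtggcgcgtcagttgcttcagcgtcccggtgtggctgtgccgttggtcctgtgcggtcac
HSP90AB1 promoter, chr6:44247693-44247992: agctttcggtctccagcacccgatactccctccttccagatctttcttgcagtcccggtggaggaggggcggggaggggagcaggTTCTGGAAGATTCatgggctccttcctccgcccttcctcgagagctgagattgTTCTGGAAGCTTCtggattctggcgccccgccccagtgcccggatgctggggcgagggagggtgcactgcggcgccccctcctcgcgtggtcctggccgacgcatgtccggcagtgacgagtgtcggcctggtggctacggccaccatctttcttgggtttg
HSPA6 promoter, chr1:161524290-161524589: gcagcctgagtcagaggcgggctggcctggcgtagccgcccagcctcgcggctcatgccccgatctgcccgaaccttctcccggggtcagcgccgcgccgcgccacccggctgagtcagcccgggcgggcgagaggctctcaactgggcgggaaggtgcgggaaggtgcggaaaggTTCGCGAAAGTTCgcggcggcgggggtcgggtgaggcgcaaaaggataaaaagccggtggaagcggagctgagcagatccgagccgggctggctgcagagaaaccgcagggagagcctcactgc
The 3-unit matches began 230 and 55 bases before the start of HSPA8, 88 bases before that of HSP90AA1, 165 and 112 bases before that of HSP90AB1 and 74 bases before that of HSPA6.

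Total counts were 11910141 to 21013004 in the 10 libraries of the H2A.X experiment and 33199408 to 41273244 in the 12 of the BAZ1B experiment. H2AFX, the gene of H2A.X, was at 89.7 to 136 CPM in WT and 17.5 to 59.8 CPM in H2A.X KO libraries, and BAZ1B at 242 to 264 CPM in WT and 174 to 222 CPM in BAZ1B KO libraries, where reads outside the deleted stretch can still be counted. The 10 erythroid markers were counted in all groups and the 4 lymphocyte markers summed to at most 0.0730 CPM. At D0 the erythroid markers summed to 18293 to 27528 CPM in H2A.X WT, 7759 to 10072 CPM in H2A.X KO and 2908 to 4553 CPM over WT and KO of the BAZ1B experiment, and at D6 to 21685 to 57396 CPM over all groups. The 7 markers of mast cells and eosinophils summed to 104 to 139.8 CPM in H2A.X WT and 209 to 419 CPM in H2A.X KO at D0, and to 145 to 232 CPM and 3.08 to 13.5 CPM at D6. At D0 the 4 megakaryocyte markers summed to 8.72 to 9.67 CPM in H2A.X WT and 32.7 to 75.7 CPM in H2A.X KO. They summed to 72.3 to 75.5 CPM in BAZ1B WT and 34.4 to 67.6 CPM in BAZ1B KO. The 3 monocyte markers summed at D0 to 0.0575 to 0.272 CPM in H2A.X WT and 1.36 to 1.88 CPM in H2A.X KO. In the column headers, 5 of the 6 H2A.X KO libraries and no WT library carry the word Redo. The part of these differences in the results that follow was not tested, and at D0 Redo and genotype cannot be told apart. In bulk RNA, fewer cells of a type and less RNA per cell cannot be told apart.

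Chaperone transcripts summed to 19187 to 25448 CPM per library. HSPA8, HSP90AA1 and HSP90AB1 alone made up 37.5% to 46.3% of that sum (median 44.1%). Per length, as RPKM, the CPM divided by the transcript length in kilobases, in the 3 WT libraries of the BAZ1B experiment at D0, the order was HSPA8 at 1592 ± 31.0 (SD, n = 3), HSP90AB1 at 1346 ± 48.2, HSP90AA1 at 1124 ± 32.8, HSPB1 at 532 ± 16.1, HSPD1 at 437 ± 6.57 and TCP1 at 380.2 ± 12.4. Each of these steps was larger than the SDs of both neighbours. HSPA9, the HSP70 of mitochondria, at 146 ± 1.23 RPKM and HSP90B1, the HSP90 of the endoplasmic reticulum, at 141 ± 1.30 RPKM were 15th and 16th. The stress-inducible HSPA1A and HSPA1B were at 10.8 ± 0.223 and 25.03 ± 0.371 RPKM. HSPA1A and HSPA1B share 73.8% and 73.3% of their 75-base windows with other genes, mostly each other, so that their levels are uncertain.

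HSPA8 encodes HSC70, the constitutive HSP70 of the cytosol and the protein the study used as a loading control on its blots. At D0 it was at 3139 and 3825 CPM in H2A.X WT and 1989, 3282 and 3236 CPM in H2A.X KO libraries. At D6 the values were 2448 and 3615 CPM in WT and 1869.8, 2794 and 2888 CPM in KO. The groups overlapped at both days, and KO replicate 1 was the lowest library at each. The log2 fold change, KO over WT, was -0.30 (SE 0.278, adjusted p = 0.421) at D0 with a 95% interval of -0.91 to 0.32, and -0.27 (SE 0.279, adjusted p = 0.451) at D6 with an interval of -0.89 to 0.35. In the BAZ1B experiment the 12 libraries lay between 2946 CPM and 3749 CPM, and the log2 fold changes were -0.03 (SE 0.0435, adjusted p = 0.839) at D0 with an interval of -0.12 to 0.07 and 0.07 (SE 0.0435, adjusted p = 0.313) at D6 with an interval of -0.02 to 0.17. The H2A.X intervals thus leave room for a change of HSPA8 that those of the BAZ1B experiment do not. With the replicate number as a block HSPA8 was called lower in H2A.X KO at D0, but not at D6. With the length and GC correction added to the block it was not called at D0. In H2A.X KO at D6 its log2 fold change was -0.52 without WT replicate 1 and 0.0652 without WT replicate 2.

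**Figure D1:**
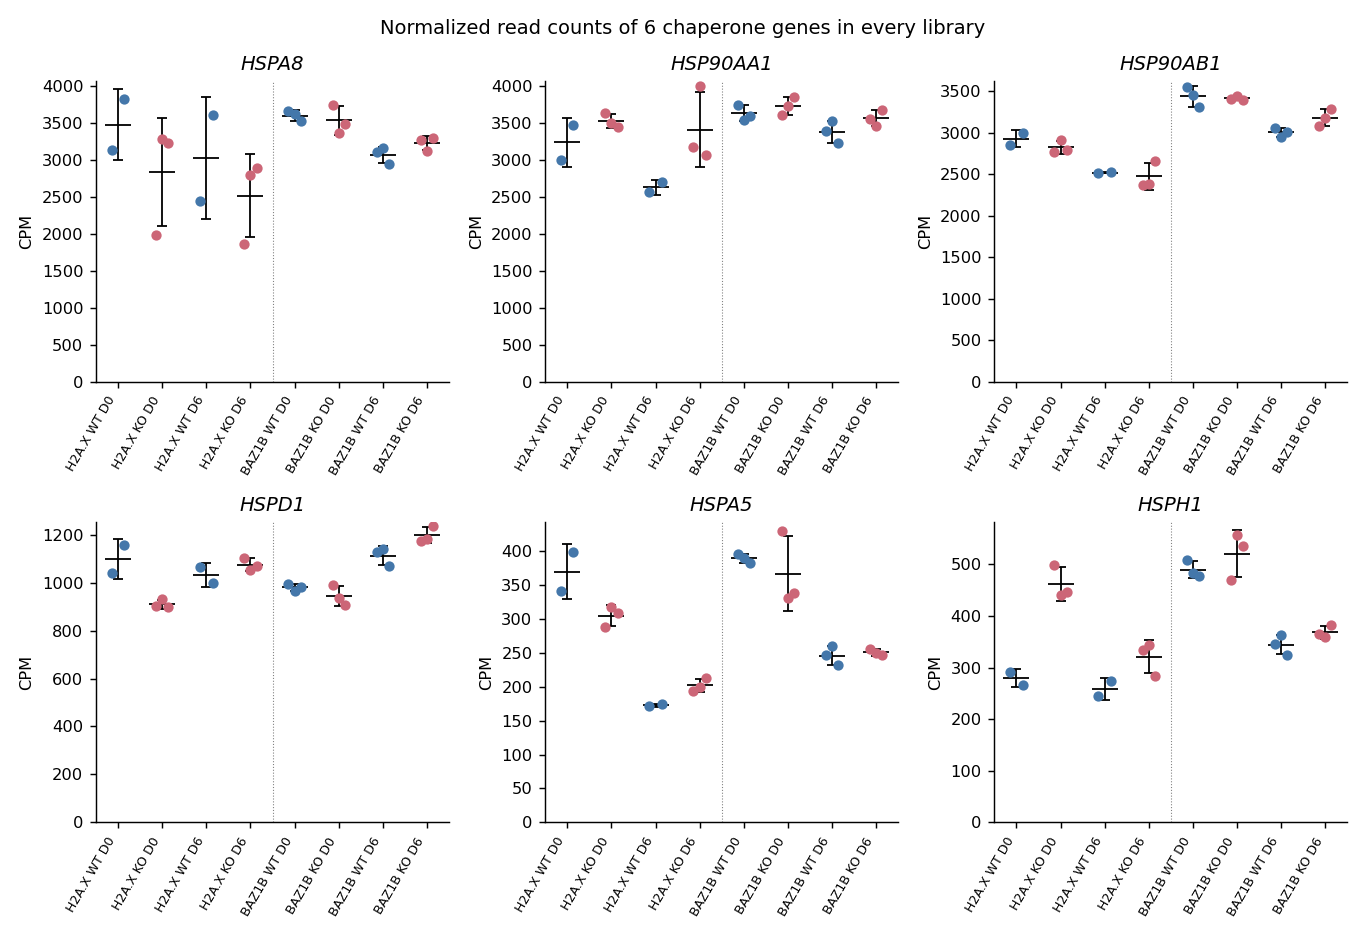
CPM of HSPA8, HSP90AA1, HSP90AB1, HSPD1, HSPA5 and HSPH1 (vertical axes, from 0) in every library of the 8 groups (horizontal axes; blue WT, red KO; black bars give mean ± SD; the dotted line separates the experiments, which were normalized separately). WT and KO points of HSPA8 overlap in every pair, whereas HSPH1 is at 267 and 291 CPM in H2A.X WT and at 440.5 to 499 CPM in H2A.X KO at D0.

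Without H2A.X, HSPB1, HSPE1 and BAG1 were lower and DNAJC13 and HSPA13 higher at both days. At D0, 10 members were higher and 11 lower in KO (adjusted p below 0.05), where 18.4% of all 13236 tested genes were higher and 16.7% lower. At D6, 14 were higher and 10 lower, against 22.2% and 20.9% of all genes. For the 76 tested members these shares are near or below the background. The median log2 fold change of the members was -0.06 at both days, against 0.01 and -0.01 over all genes. In all, 13 members were called in the same direction at both days (6 higher and 7 lower) and 0 in opposite directions, which is 61.9% of the D0 calls and 54.2% of the D6 calls, against 64.8% and 52.9% over all genes.

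Among the small heat shock proteins, ATP-independent holders of unfolded protein, HSPB1 was lower at both days. It stood at 488 and 759.6 CPM in H2A.X WT and 259, 282 and 254 CPM in H2A.X KO at D0. At D6 it stood at 483 and 727 CPM in WT and 174, 193 and 231 CPM in KO. All KO libraries were below both WT libraries, while WT replicate 2 was above replicate 1 at each day. The log2 fold change was -1.23 (SE 0.226, adjusted p = 0.00685) at D0 and -1.60 (SE 0.226, adjusted p = 0.00318) at D6. HSPB11, which is named as a small heat shock protein but known for intraflagellar transport, was lower at D0 at -0.86 (SE 0.205, adjusted p = 0.0128), and the other 6 HSPB genes had too few reads.

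HSPE1, the lid of the mitochondrial chaperonin, and HSPD1, its barrel, behaved differently. HSPE1 was at 110.0 and 198 CPM in WT and 74.1, 81.3 and 75.2 CPM in KO at D0, and at 124 and 183 CPM and 50.5, 56.0 and 78.8 CPM at D6. It fell in KO, with log2 fold changes of -1.0001 (SE 0.268, adjusted p = 0.0189) and -1.31 (SE 0.269, adjusted p = 0.00551). HSPD1 stood at 1039.5 and 1157 CPM in WT and 903, 930.3 and 897 CPM in KO at D0, groups that did not overlap, but its log2 fold change of -0.27 (SE 0.131, adjusted p = 0.127) did not pass the test. At D6 it was 0.06 (SE 0.132, adjusted p = 0.733). HSPE1 shares 40.4% of its windows with other genes, 24.6% with the readthrough gene HSPE1-MOB4, so that its count is uncertain. DNAJC19, a J protein of the mitochondrial import motor, was lower at both days, with log2 fold changes of -0.79 and -0.84.

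BAG1, a nucleotide exchange factor of HSP70 that also binds BCL2, was at 138 and 238 CPM in WT and 77.3, 86.7 and 83.5 CPM in KO at D0. The D6 values were 148 and 194 CPM and 65.2, 77.8 and 107 CPM. All KO libraries again lay below both WT libraries, with log2 fold changes of -1.19 (SE 0.255, adjusted p = 0.00969) and -1.03 (SE 0.256, adjusted p = 0.0105). BAG4 was higher in KO at both days, by 0.46 and 0.47, and BAG5 at D6, by 0.41, though after correction for transcript length and GC content the D6 values were -0.0118 and -0.12. BAG3, which links HSP70 to autophagy, did not pass the test at either day, at 0.22 (SE 0.234, adjusted p = 0.482) and 0.01 (SE 0.236, adjusted p = 0.985).

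The HSP110 proteins, exchange factors for HSP70, were higher without H2A.X for 2 of 3 members at D0 and 1 of 3 at D6. HSPH1 was at 291 and 267 CPM in WT and 499, 440.5 and 446 CPM in KO at D0, a log2 change of 0.73 (SE 0.146, adjusted p = 0.00844). At D6 it was at 244 and 274 CPM and 334, 345 and 285 CPM, which gave 0.31 (SE 0.144, adjusted p = 0.107). HSPA4L, the testis-enriched relative of HSPA4, was at 111 and 91.4 CPM in WT and 202, 198 and 175 CPM in KO at D0 and changed by 0.92 (SE 0.217, adjusted p = 0.0125). At D6 the change was 0.83 (SE 0.218, adjusted p = 0.0131), or -0.23 after correction for transcript length and GC content. After the same correction neither HSPH1 nor HSPA4L was called at D0. HSPA4 itself showed 0.02 (SE 0.125, adjusted p = 0.92) and -0.09 (SE 0.125, adjusted p = 0.57).

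Of the 11 tested HSP70 genes, 2 were higher at D0, 1 at D6 and 0 lower at either day by edgeR. HSPA2, a germ cell HSP70, was low throughout, at 2.19 and 2.11 CPM in WT and 8.33, 6.01 and 7.40 CPM in KO at D0, which gave a log2 fold change of KO over WT of 1.75 (SE 0.312, adjusted p = 0.00648). HSPA13, an HSP70 of the endoplasmic reticulum, was at 31.5 and 21.1 CPM in WT and 60.3, 54.5 and 56.9 CPM in KO at D0. At D6 it was at 28.4 and 29.9 CPM and 82.9, 90.7 and 40.4 CPM, the KO library without Redo in its header being the one nearest to WT. The changes of HSPA13 were 1.12 (SE 0.312, adjusted p = 0.0214) and 1.29 (SE 0.315, adjusted p = 0.00988). The stress-inducible HSPA1A stood at 14.6 and 21.6 CPM in WT and 50.3, 18.1 and 21.3 CPM in KO at D0, 1 KO library being far above the others, and gave 0.73 (SE 0.509, adjusted p = 0.281). HSPA1B gave 0.24 (SE 0.318, adjusted p = 0.567). HSPA5, the HSP70 of the endoplasmic reticulum known as BiP, gave -0.28 (SE 0.129, adjusted p = 0.115) at D0 and 0.23 (SE 0.131, adjusted p = 0.18) at D6, and HSPA9 gave -0.06 (SE 0.139, adjusted p = 0.75) and 0.03 (SE 0.140, adjusted p = 0.863).

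J proteins, which deliver clients to HSP70, moved in both directions. Of 24 tested DNAJC genes, 4 were higher and 4 lower at D0, and 6 higher and 5 lower at D6, whereas 0 of 4 DNAJA genes were called at either day by edgeR. DNAJC13, which acts on endosomes, was at 51.2 and 31.9 CPM in WT and 96.3, 113 and 114 CPM in KO at D0, a log2 change of 1.38 (SE 0.211, adjusted p = 0.00452). At D6 it was at 34.6 and 29.1 CPM and 74.7, 83.5 and 70.3 CPM, a change of 1.26 (SE 0.212, adjusted p = 0.0039). DNAJC6, auxilin, which uncoats clathrin vesicles, was higher at D6, at 49.8 and 38.8 CPM in WT and 170.1, 168 and 81.5 CPM in KO. Its change was 1.66 (SE 0.330, adjusted p = 0.00508), and the KO library without Redo was again the nearest to WT. DNAJB4 at D6 behaved likewise, with 21.6 and 21.9 CPM in WT, 47.8, 70.8 and 30.1 CPM in KO and a change of 1.19 (SE 0.308, adjusted p = 0.0125). The lower members included DNAJC9, a chaperone of histones H3 and H4, at 262 and 374 CPM in WT and 173, 184 and 192 CPM in KO at D0. It changed by -0.80 (SE 0.166, adjusted p = 0.00902) at D0 and -0.28 (SE 0.168, adjusted p = 0.194) at D6, and shares 67.9% of its windows with FAM149B1. DNAJC7, which also binds HSP90, was lower at both days, at -0.60 and -0.74, as was DNAJC8, a splicing-associated J protein, at -0.59 and -0.48. DNAJB14 and DNAJC16, both anchored in the endoplasmic reticulum membrane, were higher at both days, by 0.89 and 0.79 at D0 and by 0.54 and 0.90 at D6, where DNAJB14 stood at -0.29 after that correction. DNAJC10 was higher at D0 (0.56) and DNAJC27 at D6 (1.12), while DNAJC4 (-1.05) and DNAJC17 (-0.74) were lower at D6, and the same correction turned DNAJC10 at D0 to -0.70 and DNAJC4 at D6 to 0.0830. DNAJC17 shares 28.5% of its windows with other genes. DNAJB1 and DNAJA1, the main partners of the cytosolic HSP70s, gave 0.08 (SE 0.209, adjusted p = 0.781) and -0.03 (SE 0.151, adjusted p = 0.902) at D0.

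All 9 genes of the CCT chaperonin had negative log2 fold changes at both days, with medians of -0.36 and -0.37, but 2 passed the test at each. These were CCT7 (-0.55) and CCT8 (-0.45) at D0, and CCT7 (-0.60) and CCT5 (-0.48), which shares 52.5% of its windows with other genes, at D6. After correction for transcript length and GC content, CCT7 and CCT8 were not called, and CCT5 was still called at D6. TCP1 gave -0.31 (SE 0.146, adjusted p = 0.119) and CCT2 -0.36 (SE 0.131, adjusted p = 0.053) at D0. With upper-quartile normalization, which moved the median of all genes from 0.01 to -0.06 at D0 and from -0.01 to -0.11 at D6, the family's calls shifted to 8 higher and 14 lower at D0 and to 10 higher and 14 lower at D6. The 3 HSP90 genes gave 0 calls at either day by edgeR. HSP90AA1 was at 2558 and 2700.5 CPM in WT and 3168, 3992 and 3063 CPM in KO at D6, which gave 0.37 (SE 0.167, adjusted p = 0.0939). HSP90AB1 gave -0.05 (SE 0.140, adjusted p = 0.787) and -0.03 (SE 0.140, adjusted p = 0.892), and HSP90B1 -0.16 (SE 0.154, adjusted p = 0.44) and -0.14 (SE 0.154, adjusted p = 0.465). Among the HSP90 pseudogenes, HSP90AB2P and HSP90AA2P were higher at D6, by 2.38 and 1.75. Their KO levels were under 2 CPM and reads of HSP90 genes may be counted there, so that these calls are uncertain.

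**Figure D2:**
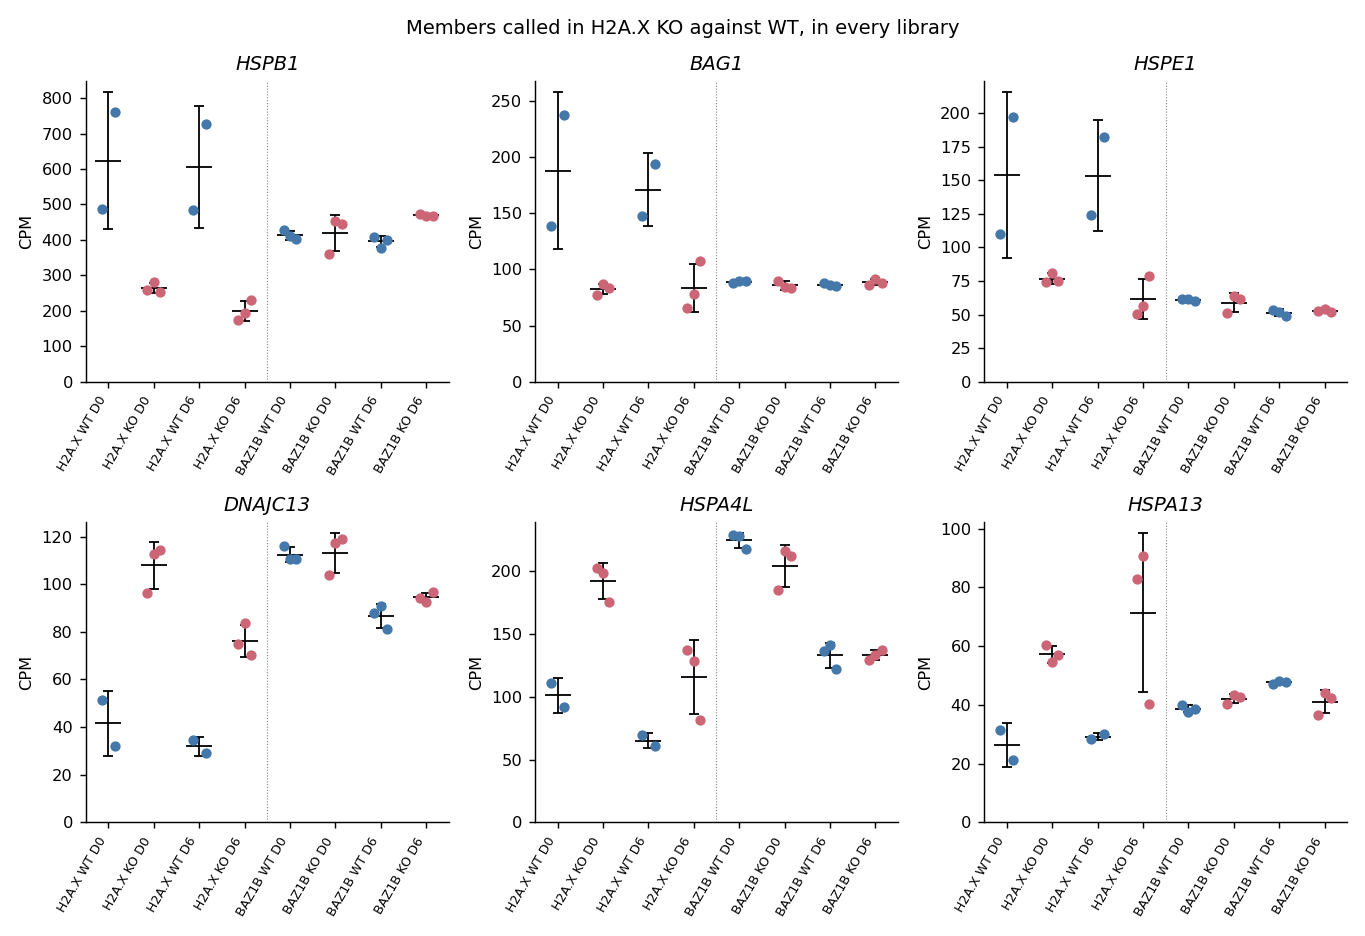
CPM of HSPB1, BAG1, HSPE1, DNAJC13, HSPA4L and HSPA13 (vertical axes, from 0) in every library of the 8 groups (horizontal axes; blue WT, red KO; black bars give mean ± SD; the dotted line separates the experiments, which were normalized separately). In the H2A.X experiment HSPB1, BAG1 and HSPE1 were lower and the other 3 genes higher in KO than in WT. The groups did not overlap at D0 or D6. After correction for transcript length and GC content, BAG1 was called at both days and DNAJC13 and HSPA13 at D0 only. HSPB1, HSPE1 and HSPA4L were then called at neither day, and HSPA4L at D6 had a log2 fold change of -0.23.

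These calls rested on few WT libraries. Without H2A.X WT replicate 2 at D0, 0 members were called by edgeR at D0, and HSPB1 then stood at -0.88 (adjusted p = 0.0910), BAG1 at -0.74 (adjusted p = 0.130), HSPE1 at -0.52 (adjusted p = 0.251) and DNAJC13 at 1.08 (adjusted p = 0.0546). Without H2A.X WT replicate 2 at D6, 0 members were called at D6, and without WT replicate 1 at D6, 15. Without KO replicate 1 or KO replicate 3 at D0, 11 members were called at D0, and the D0 calls of HSPE1 and HSPA13 were lost in either case. That of DNAJC7 at D0 was lost without any of 7 libraries, those of WT at D6, of KO at D0, WT replicate 2 at D0 and KO replicate 1 at D6. Without WT replicate 1 at D6, HSPA13, DNAJB4 and both HSP90 pseudogenes were not called at D6. The study defined differential expression by an absolute log2 fold change over 1.5 and a p under 0.001, beside an adjusted threshold of 0.05. By edgeR HSPA2 met these cutoffs at D0, where 3.88% of all tested genes did, and HSPB1 and DNAJC6 met them at D6, where 5.53% did. The KO effect did not differ between days for any member by edgeR (0 of 76, against 0.302% of all genes in the positive and 1.04% in the negative direction), with 6 members at an unadjusted p below 0.05 and 0 called by DESeq2.

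**Figure D3:**
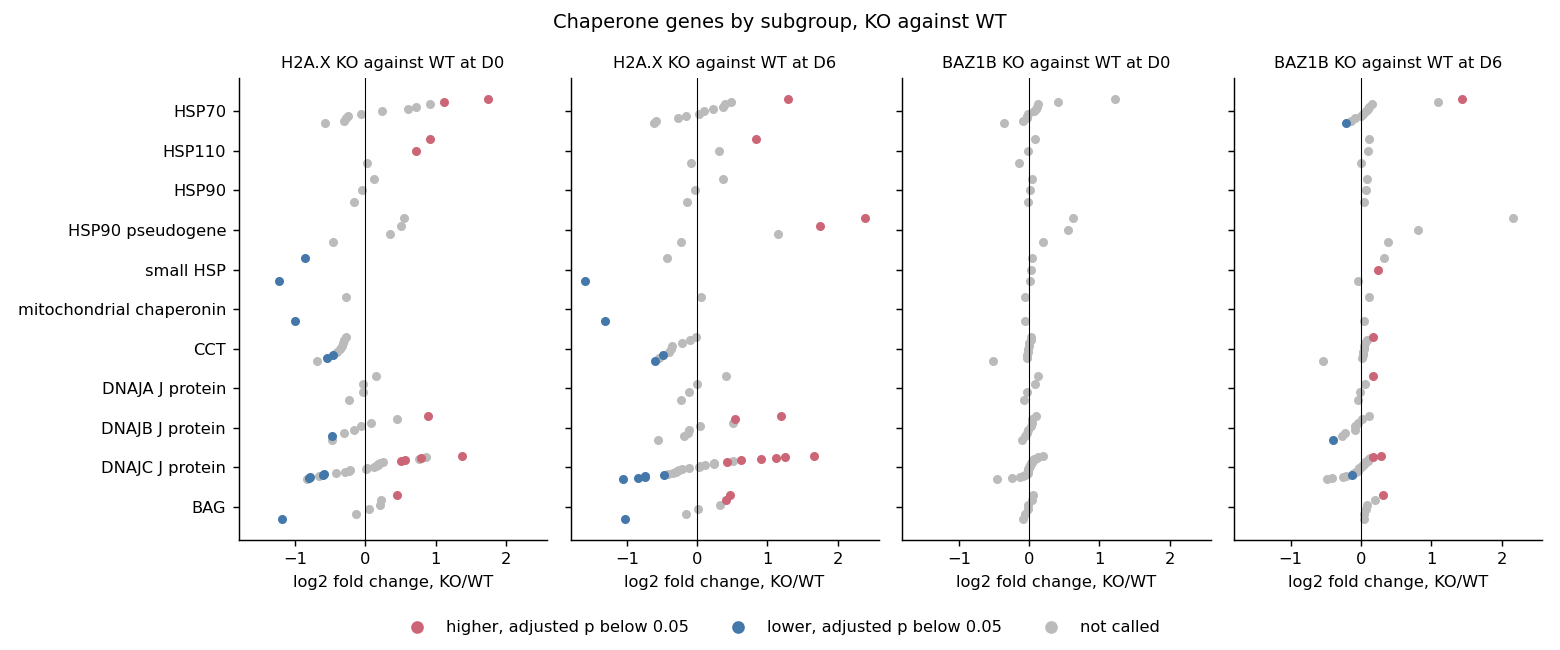
Log2 fold change of KO over WT (horizontal axes) for the tested members of each subgroup (rows) in the 4 comparisons of KO with WT (panels); red is higher and blue lower at an adjusted p below 0.05, grey not called. In H2A.X KO all 9 CCT genes lie to the left of 0 at both days, and in BAZ1B KO the called member farthest from 0 is HSPA12B at 1.44 at D6, while HSPA2 (1.22 at D0, 1.09 at D6) and the pseudogene HSP90AB2P (2.16 at D6) were not called. After correction for transcript length and GC content, which is not drawn, CCT5 at D6 was the only CCT gene called in H2A.X KO.

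The direction of the H2A.X calls went with transcript length. Members higher in KO at D0 had a median transcript length of 5608 bases and those lower 1763 bases, against 2584 bases for members not called. At D6 the medians were 4765.5, 1784.5 and 2507 bases. Across the 76 members Spearman's rho between log2 fold change and length was 0.636 at D0 and 0.570 at D6, and across 12017 genes 0.544 and 0.601. In the BAZ1B experiment rho was -0.0205 and -0.0603 across the members and -0.0301 and 0.0524 across all genes. These correlations are across genes of the same libraries, which are not independent. After each library was corrected for transcript length and GC content, 8 members were called at D0 (4 higher and 4 lower) and 12 at D6 (5 higher and 7 lower). Of these, 5 were among the uncorrected calls at D0 (BAG1, DNAJC9, DNAJC13, HSPA13 and HSPA2) and 8 at D6 (BAG1, CCT5, DNAJB4, DNAJC6, DNAJC17, DNAJC19, HSP90AA2P and HSP90AB2P). BAG1 was then at -1.35 (adjusted p = 0.0121) and -1.26 (adjusted p = 0.0157). HSPB1 moved to -0.38 (adjusted p = 0.0501) and -0.20 (adjusted p = 0.250), HSPE1 to -0.38 (adjusted p = 0.141) and -0.46 (adjusted p = 0.0859), and HSPA4L to 0.02 (adjusted p = 0.929) and -0.23 (adjusted p = 0.158). DNAJC13 moved to 0.67 (adjusted p = 0.0253) and 0.41 (adjusted p = 0.109), and HSPH1 at D0 to 0.26 (adjusted p = 0.132). A correction of this kind also removes any change of expression that itself goes with length.

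**Figure D4:**
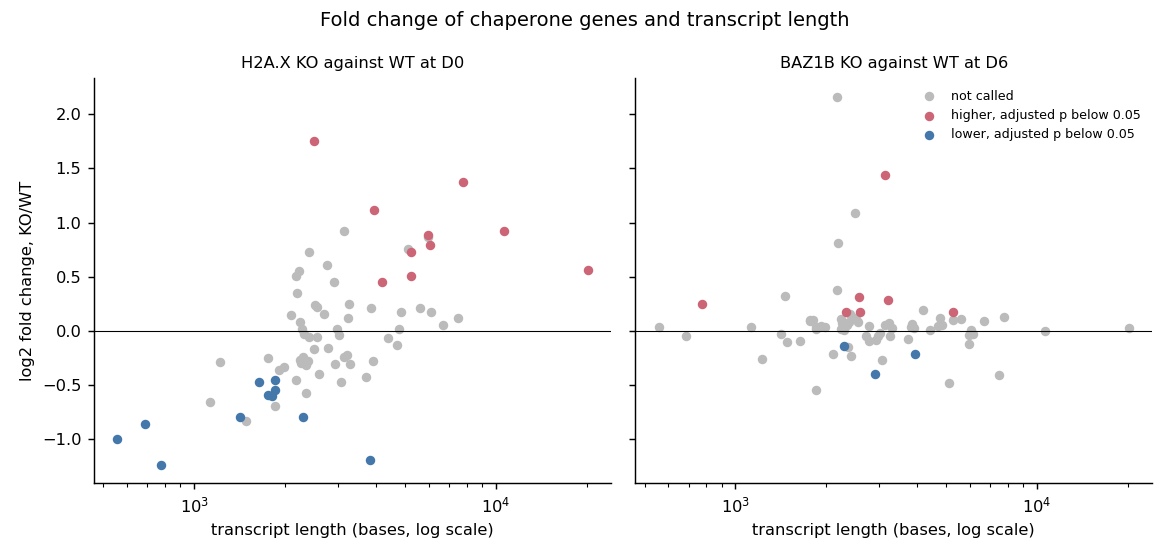
Log2 fold change of KO over WT (vertical axes) against transcript length in bases (horizontal axes, log scale) for the tested members in H2A.X KO at D0 and BAZ1B KO at D6; red is higher and blue lower at an adjusted p below 0.05, grey not called. Longer members sit higher in H2A.X KO (rho 0.636 over 76 members) and not in BAZ1B KO (rho -0.0603).

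Levels of the called members were also set beside the WT cells of the BAZ1B experiment, on a joint TMM scale of both tables. This comparison was chosen after the values were seen, and the calls use the H2A.X values themselves, so it is a description. At D0 the BAZ1B WT mean was nearer to H2A.X KO than to H2A.X WT for 9 of the 10 higher and 10 of the 11 lower members (86.8% and 85.5% of the genes called over the whole table). At D6 it was nearer to H2A.X KO for 12 of 14 and 8 of 10 (87.5% and 78.6% of all). DNAJC13 at D0, for example, had joint-scale means of 41.2 CPM in H2A.X WT, 109.7 CPM in H2A.X KO and 112 CPM in BAZ1B WT. BAG1 had 186, 83.9 and 89.1 CPM in the same order, and HSPE1 152, 78.1 and 61.1 CPM. The exceptions at D0 were HSPB1 and HSPA2, and at D6 HSPB1, DNAJB4, CCT7 and HSP90AB2P. HSPB1 had 617 CPM in H2A.X WT, 269 CPM in H2A.X KO and 414 CPM in BAZ1B WT at D0. The experiments differ in depth and were deposited as separate tables, and their part in this was not tested.

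In BAZ1B KO at D0, 0 of 76 members were called by edgeR, where 1.25% of all 13879 tested genes were higher and 2.64% lower. At an unadjusted p below 0.05 there were 6 members, and DESeq2 called 1, HSPA2. It was at 2.21, 2.04 and 2.53 CPM in WT and 2.94, 7.81 and 5.10 CPM in KO, without overlap, and its log2 fold change was 1.22 (SE 0.335, adjusted p = 0.0677). With the replicate number as a block it was 1.12 (adjusted p = 0.0236), and it was also called without a filter on low counts. The D6 values of HSPA2 were 0.772, 1.51 and 1.10 CPM and 1.77, 3.40 and 2.06 CPM, which gave 1.09 (SE 0.371, adjusted p = 0.0759), or 1.09 (adjusted p = 0.0218) with the block. The median SE of a log2 fold change was 0.0568, against 0.191 in the H2A.X experiment at D0, so that smaller changes could be detected. HSP90AA1 gave 0.04 (SE 0.0414, adjusted p = 0.742), HSPA5 -0.09 (SE 0.0805, adjusted p = 0.67) and HSPB1 0.02 (SE 0.0700, adjusted p = 0.929).

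At D6, 7 members were higher and 3 lower in BAZ1B KO, against 6.87% and 5.97% of all genes, and with upper-quartile normalization 7 were higher and 6 lower. HSPA12B, a distant HSP70 relative known from endothelium, was at 0.505, 0.813 and 0.751 CPM in WT and 2.61, 1.30 and 1.70 CPM in KO, a log2 change of 1.44 (SE 0.270, adjusted p = 0.00368). BAG3 was at 32.0, 32.3 and 29.1 CPM in WT and 42.3, 37.2 and 36.6 CPM in KO and changed by 0.32 (SE 0.0603, adjusted p = 0.0041). DNAJC11, a J protein of the mitochondrial contact site complex, was at 165, 162 and 162 CPM in WT and 198, 202 and 194 CPM in KO. Its change of 0.28 (SE 0.0333, adjusted p = 0.000154) had the lowest adjusted p of the members in this comparison, though it shares 42.9% of its windows with THAP3. HSPB1, lower without H2A.X, was at 409, 378 and 401 CPM in WT and 472, 468 and 468 CPM in KO of the BAZ1B experiment, a change of 0.25 (SE 0.0701, adjusted p = 0.0365). DNAJA1, DNAJC5 and CCT6A were higher by 0.18, 0.18 and 0.17. The lower members were DNAJB4, at 26.4, 25.4 and 27.8 CPM in WT and 18.1, 21.1 and 21.4 CPM in KO (-0.39 (SE 0.0778, adjusted p = 0.00516)), HSPA13 at -0.22 (SE 0.0621, adjusted p = 0.0384) and DNAJC9 at -0.13 (SE 0.0345, adjusted p = 0.0213). The call of HSPB1 was lost without any WT library or any KO library of D6, and that of HSPA13 without any WT library, KO replicate 3 at D0 or KO replicate 1 or 3 at D6. The call of CCT6A was lost without replicate 2 or 3 of either genotype at D6, and that of DNAJC9 without any WT library of D6 or KO replicate 1 or 3 at D6. Without WT replicate 3 at D6, 6 members were called, and without KO replicate 1 at D0, 16. By edgeR 0 members met the cutoffs of the study at either day, where 1.09% of all tested genes did at D0 and 1.27% at D6, and 0 did by DESeq2 with an adjusted p under 0.001.

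For 2 members the BAZ1B effect was larger at D6 than at D0 (1.58% of all genes had a positive and 0.893% a negative difference). DNAJC11 differed by 0.30 (SE 0.0470, adjusted p = 0.00658), and BAG3 by 0.41 (SE 0.0829, adjusted p = 0.0241). DNAJC11 at D0 was at 156, 159 and 155 CPM in WT and 159, 157 and 150.2 CPM in KO. BAG3 at D0 was at 82.4, 81.8 and 78.7 CPM in WT and 73.2, 77.5 and 77.1 CPM in KO, all KO libraries being below all WT libraries, the opposite order to D6. The call of BAG3 was lost without KO replicate 3 at D0, WT replicate 1, 2 or 3 at D0, or WT replicate 3 at D6, where the adjusted p was between 0.0523 and 0.0742.

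The effects of the 2 knockouts were compared in a joint fit with each effect taken against the WT cells of its own experiment. That fit pooled the spread of each gene over all 22 libraries. Fitted separately, the coefficient of variation between libraries was 0.239 for H2A.X and 0.0865 for BAZ1B. HSPB1 at D0 had an SE of 0.221 for the difference, against 0.226 for its H2A.X effect alone. The p-values and counts of this comparison may therefore be too favourable. At D0 the H2A.X effect was above the BAZ1B effect for 11 and below it for 16 of 79 tested members, against 20.8% and 15.7% of all 15156 genes. At D6 it was above for 17 and below for 13, against 24.5% and 17.9%. Upper-quartile normalization, which moved the median of all genes from 0.07 to -0.05 at D0 and from 0.07 to -0.09 at D6, changed these splits to 10 above and 23 below at D0 and to 11 above and 22 below at D6. HSPB1 had the largest negative difference at both days, -1.21 (SE 0.221, adjusted p = 0.000718) and -1.77 (SE 0.221, adjusted p = 3.98e-05). BAG1 differed by -1.09 (SE 0.243, adjusted p = 0.00247) and -0.996 (SE 0.244, adjusted p = 0.00319), and HSPE1 by -0.91 (SE 0.265, adjusted p = 0.013) and -1.27 (SE 0.266, adjusted p = 0.00104). On the positive side DNAJC13 differed by 1.40 (SE 0.197, adjusted p = 0.000124) and 1.20 (SE 0.199, adjusted p = 0.000203), and HSPA13 by 1.03 (SE 0.294, adjusted p = 0.0112) and 1.57 (SE 0.297, adjusted p = 0.000482). At D6 DNAJC6 differed by 1.84 (SE 0.312, adjusted p = 0.000233) and DNAJB4 by 1.65 (SE 0.295, adjusted p = 0.000336). DNAJB4, HSPA13 and HSPB1 were called in opposite directions by the 2 knockouts at D6, and 0 members in the same direction by edgeR. Over all genes 366 were called in the same and 410 in opposite directions. After correction for transcript length and GC content, HSPA13 and HSPB1 were not called in H2A.X KO at D6, whereas DNAJB4 was. The BAZ1B calls of HSPA13 and HSPB1 at D6 were lost without any WT library, and that of DNAJB4 was not. Without H2A.X WT replicate 2 at D0, 10 members differed at D0, and HSPE1 and HSPA13 were not among them.

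In WT cells of the BAZ1B experiment 18 members rose and 37 fell from D0 to D6, against 33.5% and 35.4% of all genes. In BAZ1B KO cells 18 rose and 33 fell, against 33.2% and 34.5%. Of the 76 tested members a smaller share rose and a larger share fell than of all genes, in WT and in KO cells. No set test was made. The 2 comparisons share no library, and 47 members were called in the same direction in both, 16 up and 31 down, which is 85.5% of the WT and 92.2% of the KO calls, against 85.6% and 87.2% over all genes. By role, in WT cells, 9 of 11 HSP70 genes, 3 of 3 HSP110 genes, 3 of 3 HSP90 genes and 6 of 8 genes of the endoplasmic reticulum fell, while CCT genes were split into 3 up and 3 down.

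The largest fall in WT cells was that of HSPA12B, from 9.03, 10.04 and 10.2 CPM at D0 to 0.505, 0.813 and 0.751 CPM at D6, a log2 change of -3.81 (SE 0.249, adjusted p = 2.22e-08). BAG3 fell from 82.4, 81.8 and 78.7 CPM to 32.0, 32.3 and 29.1 CPM, which gave -1.38 (SE 0.0594, adjusted p = 6.21e-10). The stress-inducible HSPA1A fell from 25.4, 26.1 and 26.5 CPM to 14.1, 15.3 and 14.1 CPM, with -0.84 (SE 0.0811, adjusted p = 8.96e-07). DNAJC18, HSPA2 and HSPA4L fell as well, with log2 fold changes of -1.42, -1.01 and -0.76, of which that of HSPA2 was not called without WT replicate 1 or 3 of D0 or of D6. The chaperones of the endoplasmic reticulum fell too, HSPA5 from 396, 390.2 and 382 CPM to 246, 259.6 and 232 CPM (-0.66 (SE 0.0811, adjusted p = 8.75e-06)) and HSP90B1 with -0.39 (SE 0.0616, adjusted p = 8.78e-05). For HSPH1 and HSPA4 the log2 fold changes were -0.51 (SE 0.0611, adjusted p = 7.58e-06) and -0.49 (SE 0.0392, adjusted p = 1.48e-07). Among the most abundant members, HSPA8 gave -0.23 (SE 0.0435, adjusted p = 0.000393), HSP90AB1 -0.19 (SE 0.0359, adjusted p = 0.000329) and HSP90AA1 -0.10 (SE 0.0414, adjusted p = 0.0432), falls that the low spread of these libraries resolves although they are small.

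J proteins were among the members that rose most in WT cells, while others of their class, among them DNAJC18 and DNAJA1, fell. DNAJB2, which carries ubiquitinated clients to the proteasome, rose from 11.3, 11.1 and 12.3 CPM to 36.8, 34.7 and 41.6 CPM, or by 1.70 (SE 0.0866, adjusted p = 2.24e-09). DNAJA4 rose from 307, 296 and 301 CPM to 676, 666 and 745 CPM, with 1.21 (SE 0.0603, adjusted p = 1.92e-09). DNAJC6 rose from 82.8, 79.2 and 77.1 CPM to 173, 173 and 181 CPM, and DNAJB4 from 9.27, 9.52 and 10.51 CPM to 26.4, 25.4 and 27.8 CPM. Their log2 fold changes were 1.14 (SE 0.0536, adjusted p = 1.18e-09) and 1.44 (SE 0.0804, adjusted p = 4.94e-09). HSPA6, an HSP70 that is strongly induced by heat, rose from 3.60, 3.23 and 3.82 CPM to 8.20, 8.46 and 9.92 CPM, opposite to HSPA1A and by 1.32 (SE 0.127, adjusted p = 9.17e-07). It shares 35.3% of its windows with HSPA7. DNAJC4, DNAJB9 and CCT6B rose by 1.25, 0.94 and 0.81. In mitochondria HSPD1 rose by 0.18 (SE 0.0409, adjusted p = 0.00149), but the mean CPM of other mitochondrial members went both ways. It was lower at D6 for HSPA9 (641 to 523 CPM), HSPE1 (60.97 to 51.49 CPM) and DNAJA3 (93.26 to 87.26 CPM). For DNAJC15 (22.3 to 26.4 CPM) and DNAJC19 (28.1 to 32.4 CPM) it was higher. Of the 7 members with a 3-unit match in a promoter, HSPA6 and HSPD1 thus rose. HSPA8, HSP90AA1, HSP90AB1 and DNAJA1, the last with -0.28 (SE 0.0386, adjusted p = 2.92e-05), fell, and DNAJB6 gave -0.07 (SE 0.0385, adjusted p = 0.136).

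BAZ1B KO cells gave the same leading members, HSPA12B at -2.79, DNAJC18 at -1.66, HSPA2 at -1.14, BAG3 at -0.97, HSPA1A at -0.76 and HSPA1L at -0.70 on the falling side. On the rising side they were DNAJB2 at 1.54, HSPA6 at 1.53, DNAJC4 at 1.16, DNAJA4 at 1.13, DNAJB4 at 1.11 and DNAJC6 at 1.04. The call of HSPA2 was lost without KO replicate 2 at D0.

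In the H2A.X experiment fewer members were called. In WT cells, with 2 libraries a day, 1 member rose and 2 fell, against 0.839% and 1.16% of all genes. HSPA12B fell from 7.71 and 10.2 CPM to 0.650 and 0.204 CPM (-4.26 (SE 0.478, adjusted p = 0.0108)), HSPA5 from 341 and 399 CPM to 171 and 174 CPM (-1.10 (SE 0.145, adjusted p = 0.016)), and DNAJC4 rose by 1.41 (SE 0.299, adjusted p = 0.0446). All 3 calls were lost without WT replicate 1 at D0, WT replicate 2 at D0 or WT replicate 2 at D6. That of DNAJC4 was lost also without any KO library of D0, and without KO replicate 3 at D6, 5 members were called. In H2A.X KO cells 10 rose and 10 fell, against 14.8% and 16.1%. HSPA12B fell from 16.8, 18.4 and 15.6 CPM to 0.366, 0.866 and 0.714 CPM (-4.70 (SE 0.365, adjusted p = 6.40e-05)), and DNAJC18, HSPA2, HSPA4L, DNAJC10 and BAG3 fell with log2 fold changes of -2.06, -1.20, -0.73, -0.71 and -0.69. DNAJB4 rose from 18.5, 14.9 and 18.1 CPM to 47.8, 70.8 and 30.1 CPM (1.53 (SE 0.269, adjusted p = 0.00239)), and DNAJB9, CCT6B, HSPA6, DNAJA4 and DNAJC4 by 1.45, 1.13, 1.11, 1.07 and 1.02. Without KO replicate 1, 2 or 3 at D0, or KO replicate 2 at D6, 10 to 12 members were called, and the calls of CCT6B, HSPA6, HSPA4L or BAG3 were among those lost. All 20 members called in H2A.X KO cells were called in the same direction in WT cells of the BAZ1B experiment, 36.4% of the 55 calls there, where 93.6% of all genes called in H2A.X KO cells were. The 3 calls of H2A.X WT cells had that direction too.

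**Figure D5:**
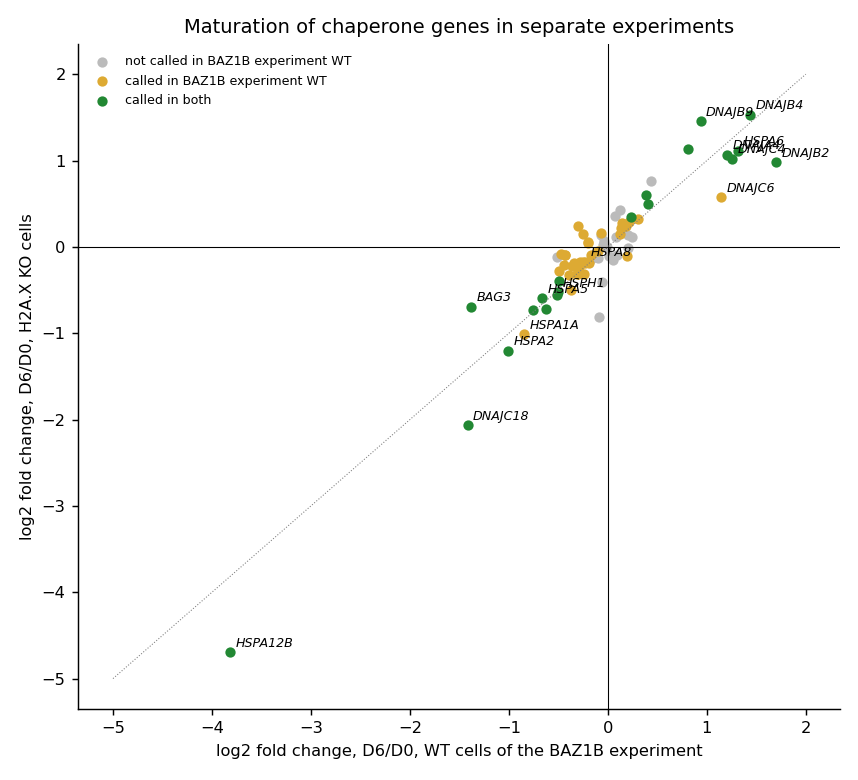
Log2 fold change of D6 over D0 in WT cells of the BAZ1B experiment (horizontal axis) and in H2A.X KO cells (vertical axis) for the 75 members tested in both; green is called in both, yellow in BAZ1B-experiment WT cells, grey not called there, and the dotted line marks equal change. The 20 members called in both lie below 0 or above 0 on both axes, and 61 of the 75 have the same sign.

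Of 42 other genes of chaperone biology (HSF1 and its relatives, co-chaperones of HSP70 and HSP90, prefoldin, mitochondrial proteases and folding enzymes of the endoplasmic reticulum), all were tested. In H2A.X KO, 5 were higher and 13 lower at D0 (median log2 fold change -0.26), against 18.4% and 16.7% of all tested genes. At D6, 5 were higher and 16 lower (median -0.29), against 22.2% and 20.9%. Prefoldin hands unfolded actin and tubulin to CCT. Its subunits PFDN1, PFDN2, PFDN4, PFDN5 and PFDN6 were lower at D0, with PFDN5 at -1.29 (SE 0.258, adjusted p = 0.0082) and PFDN2 at -0.95 (SE 0.202, adjusted p = 0.00951), and these except PFDN1 were lower at D6. HSF1 was lower at -0.996 (SE 0.182, adjusted p = 0.00685) and -0.89 (SE 0.182, adjusted p = 0.00555), as was STUB1, the ubiquitin ligase CHIP, at -0.94 (SE 0.208, adjusted p = 0.0105) and -1.32 (SE 0.208, adjusted p = 0.00358). CANX, calnexin, and HYOU1, an HSP110 relative of the endoplasmic reticulum, were higher at D0, at 0.63 (SE 0.145, adjusted p = 0.012) and 0.73 (SE 0.209, adjusted p = 0.024). In these H2A.X comparisons log2 fold change went with transcript length over 12017 genes (rho 0.544 at D0 and 0.601 at D6). Whether the H2A.X calls of these other genes hold after the length and GC correction, or without single libraries, was not examined. In BAZ1B KO, STUB1 was higher and TRAP1 lower at D0, and CANX, FKBP5 and PPID were higher and VBP1 lower at D6. FKBP5, an HSP90 co-chaperone, was higher at D6 in both knockouts, at 0.82 (SE 0.197, adjusted p = 0.00945) in H2A.X KO and 0.18 (SE 0.0510, adjusted p = 0.0324) in BAZ1B KO. With maturation in BAZ1B-experiment WT cells 11 rose and 21 fell, against 33.5% and 35.4% of all tested genes. HSF1 rose by 0.55 (SE 0.0501, adjusted p = 5.86e-07) and PFDN5 by 0.73 (SE 0.0517, adjusted p = 4.46e-08), while STIP1, which joins HSP70 to HSP90, fell with -0.29 (SE 0.0453, adjusted p = 7.10e-05) and AHSA1, an activator of HSP90, with -0.31 (SE 0.0398, adjusted p = 1.54e-05).

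Members whose CPM followed that of HSPA8 or HSPH1 were listed as a description, by Spearman's rho over the libraries of 1 experiment, which differ by genotype and day. Over the 12 libraries of the BAZ1B experiment HSPA8 was followed most closely by HSPA5 (0.951), HSP90B1 (0.895) and CCT5 (0.874), and over the 10 of the H2A.X experiment by HSP90B1 (0.842), TCP1 (0.782) and CCT6A (0.758). HSPH1 was followed by DNAJC13 (0.986), HSPA1B (0.979) and DNAJA1 (0.965) in the BAZ1B experiment and by HSPA4L (0.915), DNAJC13 (0.903) and DNAJC14 (0.903) in the H2A.X experiment.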

How the data were processed

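Total RNA of 22 HUDEP-2 samples was sequenced by poly(A)-selected RNA-Seq. The authors deposited raw counts of reads per gene, 1 table per experiment and 1 column per library, without normalization. Per the submitters' processing notes, STAR 2.7.0f, Subread 1.6.4 with featureCounts, DESeq2 1.22.1 and the build hg38 were used. The labels name an unstranded library kit and the paper's methods a stranded one, with different read lengths, and which applies was not tested, so that reads of overlapping genes may be shared.

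edgeR 4.0.16 in R 4.3.3 was applied to the counts. Its filterByExpr kept genes at the defaults (count of 10, total of 15), TMM set the effective library sizes, and genes were tested by the two-sided quasi-likelihood F test with 1 coefficient per genotype and day over the libraries of an experiment, or of both for the difference between knockouts. Calls have a Benjamini-Hochberg adjusted p below 0.05 over all tested genes. CPM use effective library sizes. Errors are SDs over samples, and SEs are on the log2 scale. The study calls the cells subclones but the labels do not say that samples of a group are separate ones, so that p-values measure the spread between these samples, which may be technical. The filter kept 13236 and 13879 genes. Cutoffs of p below 0.001 with a log2 change over 1.5 were planned with the adjusted p and, after the data were seen, added with the unadjusted p that the methods of the study name. Alternatives were DESeq2 1.42.0, upper-quartile normalization, no filter, the compared day alone, replicate and subclone blocks, correction for transcript length and GC content, cutoffs on p and size, and leaving out each library. The scripts were tested on simulated data. Of the gene names, 36434 matched the annotation by name, 759 by an older name, 324 matched several genes and 21570 none. Windows of 75 bases that occur in another gene gave the share of sequence a member shares.

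Same-numbered D0 and D6 samples were taken as pairs of a subclone where their deviations from the group means correlated. Genes of at least 10 CPM were used. For the 5 pairs of the H2A.X experiment r was 0.307 to 0.602 (8430 genes). The 2 WT pairs there share an r of 0.552, since 2 libraries deviate from their mean in mirror image. For the 6 pairs of the BAZ1B experiment r was -0.0450 to 0.573 (8441 genes), with 0.488, 0.573 and 0.103 in KO and 0.205, -0.0450 and 0.155 in WT. Only the H2A.X samples were taken as pairs. The main fits used no pairing, and the subclone block was run for both experiments as an alternative. Genes named are the abundant members of each chaperone class and the called members with the largest changes. The latter are at most 8 in each direction between genotypes and 6 between days. BAG4, BAG5, DNAJC3, HSPA2 in BAZ1B KO and the H2A.X D6 values of DNAJB14 and HSPA4L were added after the values were seen. The members and lists were chosen with earlier results of these data known. TCP1, whose symbol ends like that of a pseudogene, was kept because the choice names it, and 1 DNAJC gene is not analysed here.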

Additional observations from a re-analysis of the deposited data

Results flagged for a closer look

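The BAZ1B KO effect of 2 chaperone genes differed between D6 and D0 by edgeR's test of the difference itself. For DNAJC11 the effect at D6 was above that at D0 by 0.30 on the log2 scale (SE 0.0470, adjusted p = 0.00658), with all 3 KO libraries above all 3 WT libraries at D6. The call of DNAJC11 held without each library in turn, and 42.9% of its 75-base windows also occur in the overlapping gene THAP3. For BAG3 the difference was 0.41 (SE 0.0829, adjusted p = 0.0241), with the KO libraries above WT at D6 and below WT at D0. The call of BAG3 was lost without KO replicate 3 at D0, WT replicate 1, 2 or 3 at D0, or WT replicate 3 at D6. No group has 4 or more samples, so that single libraries were not tested as outliers.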

How the results depend on the processing

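The numbers of members called moved by more than 1.5 times as follows. With the length and GC correction the 21 calls of H2A.X KO at D0 became 8, the 24 at D6 became 12 and the 27 differences between the knockouts at D0 became 14. With DESeq2 BAZ1B KO had 1 call at D0 (0 by edgeR), 16 at D6 (10) and 5 differences between days (2), and H2A.X WT cells had 5 changes with maturation (3). Without a filter on low counts these numbers were 2 at D0, 5 differences between days and 5 changes with maturation, and the H2A.X effect differed between days for 1 member (0). Upper-quartile normalization gave 4 differences between days in BAZ1B KO, and the libraries of D6 alone gave 14 calls in H2A.X KO. At log2 changes over 1.5 in size and adjusted p under 0.001, 0 members were called in H2A.X KO at D0 and D6 and in BAZ1B KO at D6 by edgeR. With the unadjusted p below 0.001 in its place, chosen after seeing the data, these were 1, 2 and 0. Leaving out 1 library at a time, which leaves a lone H2A.X WT library that is assumed to vary like the other groups, gave 0 to 25 calls in H2A.X KO at D0, 0 to 30 at D6, 0 to 5 in H2A.X WT maturation, 10 to 24 in H2A.X KO maturation, 0 to 3 and 6 to 16 in BAZ1B KO at D0 and D6, 1 to 4 differences between its days, 10 to 35 and 20 to 35 differences between the knockouts at D0 and D6, 47 to 58 in BAZ1B-experiment WT maturation and 48 to 51 in KO maturation. The H2A.X effect differed between days for 0 members whichever library was left out. With the length and GC correction directions reversed for DNAJC10 in H2A.X KO at D0 (-0.70) and for DNAJC4 in H2A.X KO at D6 (0.0830). In H2A.X KO at D6 they reversed as well for DNAJB14 (-0.29), HSPA4L (-0.23), BAG5 (-0.12), DNAJC3 (-0.0664) and BAG4 (-0.0118). In the difference between knockouts at D6 they reversed for HSPA4L (-0.18) and DNAJC4 (0.0373). They also reversed for HSPA8, not called, in H2A.X KO at D6 without WT replicate 2 at D6 (0.0652, against -0.52 without WT replicate 1) and in BAZ1B KO at D0 without KO replicate 2 at D0 (0.00643, against -0.0706 without KO replicate 1). The cause was not tested. With 11910141 to 21013004 counts a library, the smallest called log2 change was 0.41 in H2A.X KO at D6, against 0.13 in BAZ1B KO at D6.

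KO and WT samples share replicate numbers. Same-numbered pairs had correlations of their deviations of 0.0848 to 0.217 (4 pairs, H2A.X experiment) and -0.113 to 0.245 (6 pairs, BAZ1B experiment), so that the numbers were not taken as pairs. With the number as a replicate block, 27 members were called in H2A.X KO at D0, 27 at D6, 1 in BAZ1B KO at D0 and 11 at D6, and HSPA8 in H2A.X KO at D0 was at -0.44 (adjusted p = 0.0413). The replicate block with the length and GC correction gave 11 calls in H2A.X KO at D0 and 1 in BAZ1B KO at D0, with DNAJC10 at -0.87 at D0 and DNAJC4 at 0.15 at D6 in H2A.X KO. The subclone block for D0 and D6 changed no call of a named gene and no count by more than 1.5 times.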

Other observations

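DNAJC15, a J protein of the mitochondrial inner membrane, varied between BAZ1B KO samples more than between WT samples. At D0 it was at 22.1, 21.7 and 23.1 CPM in WT and at 10.4, 21.7 and 16.7 CPM in KO replicates 1 to 3, and at D6 at 26.8, 26.4 and 26.1 CPM in WT and at 13.3, 28.1 and 18.7 CPM in KO. The KO samples kept their order at both days, with replicate 1 the lowest and replicate 2 within or above the WT range. The gene was picked after its values were seen and no test was made.

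HSPA12B was at 7.71 to 18.4 CPM over all 11 D0 libraries and at 0.204 to 2.61 CPM over all 11 D6 libraries, with the BAZ1B KO libraries the highest at D6.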
